A study of Mus musculus with 6 samples.

Results

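Vegfa, Adm, Ccn1, Ccn2 and Pdgfa encode secreted factors that act on blood vessels, on connective tissue or on both. They were taken by gene symbol from a deposited table of 2065 genes, where each of the 5 has 1 entry. Vegfa encodes vascular endothelial growth factor A, Adm encodes the vasodilator peptide adrenomedullin, Ccn1 and Ccn2 encode matricellular proteins (secreted proteins of the matrix that signal through integrins rather than bear load), and Pdgfa encodes the A chain of platelet-derived growth factor. The RNA came from MLO-Y4 cells, an immortalised mouse bone cell line with osteocyte-like features that the labels give as wild type; it is known to descend from 1 clone of a mouse that expressed a viral T antigen under the osteocalcin promoter. The cells were cultured for 24 h at 20% O2 (normoxia, 3 libraries, replicates 2, 3 and 4) or in a chamber at 2% O2 (hypoxia, 3 libraries, replicates 1, 2 and 4). In their description fields, 4 of the 6 libraries state 25 or 26 h where the titles state 24 h. Whether replicates came from separate cultures is not stated in the labels, and the p-values cover the spread among these 6 libraries, part or all of which may be technical.

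In bone, osteocytes and osteoblasts secrete VEGF-A, which binds receptors on endothelial cells and couples vessel growth to bone formation. Low oxygen is the textbook inducer of Vegfa and Adm, through hypoxia-inducible factor (HIF), a transcription factor whose alpha subunit is degraded when oxygen is plentiful. Ccn1 and Ccn2 are standard targets of the mechanosensitive coactivators YAP and TAZ, which act on DNA through TEAD proteins, and Ccn2 is also a target of transforming growth factor beta (TGF-beta). PDGF-AA, the dimer of the Pdgfa product, signals through the receptor PDGFR-alpha on mesenchymal cells. The comparison asks how these transcripts differ between cultures at low and at ambient oxygen.

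Vegfa, Adm, Ccn1 and Ccn2 were lower, and Pdgfa was higher, in the libraries labelled hypoxia. The lower entries of Vegfa and Adm go against the textbook direction for low oxygen. Of 38 HIF target genes on a list, 20 were in the table, of which 17 were lower and 3 higher in the libraries labelled hypoxia, Vegfa and Adm among the lower ones, with a median log2 change of -1.64. Over all tested genes of the table, 20.6% were called lower and 79.4% higher. Among them, the glucose transporter gene Slc2a1 changed by -3.13 ± 0.09 and the endoplasmic reticulum oxidase gene Ero1a by -3.10 ± 0.11. Directions are therefore given by label only. Whether the labels match the cultures was not tested.

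The promoter sequences of the factors are shown because 3 of the lower genes and the higher gene can be set side by side for the letters that HIF and TEAD proteins bind. Each line gives the 250 bases before a transcription start, 5′ to 3′ on the gene's strand, from RefSeq on build GRCm38.p6, the upstream of the starts in that table where it lists 2. Capitals mark the HIF core on either strand, searched as ACGTG and GCGTG, and the TEAD motif, searched as GGAATG on either strand. Ccn2 is named only.
Vegfa, chr17:46032378-46032627, minus strand: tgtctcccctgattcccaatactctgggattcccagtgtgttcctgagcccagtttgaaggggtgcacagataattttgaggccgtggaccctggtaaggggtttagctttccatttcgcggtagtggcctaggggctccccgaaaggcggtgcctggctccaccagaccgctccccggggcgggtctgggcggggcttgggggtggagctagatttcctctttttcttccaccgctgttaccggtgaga
Adm, chr7:110627407-110627656, plus strand: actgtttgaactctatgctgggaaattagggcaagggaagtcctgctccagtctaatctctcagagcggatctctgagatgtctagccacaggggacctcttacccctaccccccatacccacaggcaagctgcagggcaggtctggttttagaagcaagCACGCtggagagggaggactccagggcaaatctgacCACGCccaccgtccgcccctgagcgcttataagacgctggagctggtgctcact
Ccn1, chr3:145649986-145650235, minus strand: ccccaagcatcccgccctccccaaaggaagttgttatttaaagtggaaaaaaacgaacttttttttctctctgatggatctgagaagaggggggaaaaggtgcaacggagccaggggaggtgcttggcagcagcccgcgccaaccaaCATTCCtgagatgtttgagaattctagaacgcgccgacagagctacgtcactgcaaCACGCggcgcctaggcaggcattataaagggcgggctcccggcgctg
Pdgfa, chr5:138994945-138995194, minus strand: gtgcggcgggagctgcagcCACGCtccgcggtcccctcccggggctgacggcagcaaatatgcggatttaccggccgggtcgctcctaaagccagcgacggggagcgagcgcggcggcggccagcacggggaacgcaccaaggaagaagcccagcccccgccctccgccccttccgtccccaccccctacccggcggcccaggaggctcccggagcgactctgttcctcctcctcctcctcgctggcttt

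The Adm window held GCGTG at 2 places, from -90 to -86 and from -54 to -50 relative to the start, both on the opposite strand, so that they read CACGC in the line above. The Ccn1 window held GCGTG from -47 to -43 and GGAATG from -103 to -98, again both on the opposite strand, and a TATAAA from -25 to -20. In the Pdgfa window, the one gene of the 4 whose entries were higher under the hypoxia label, GCGTG lay from -231 to -227 on the opposite strand. The Vegfa window held neither form of the core nor GGAATG. Bases outside these windows were not searched, so a missing match does not show that a gene lacks such an element. The Sp1 motif GGGCGG was in all 4 windows: from -72 to -67 and from -62 to -57 in Vegfa, from -42 to -37 in Adm, from -239 to -234 and from -19 to -14 in Ccn1, and from -93 to -88 and from -86 to -81 in Pdgfa. Of all 32851 windows of this length in the table, 28.2% held GCGTG, 16.6% ACGTG, 12.6% GGAATG, 12.4% TATAAA and 32.7% GGGCGG. The cyclic AMP response element TGACGTCA was in 1.55% of all windows and in none of the 4. The windows are of an older build than the one named in the submitters' processing notes, and a match of letters is not a binding site.

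The deposited entries are log2(value + 1) per gene and library, with no name for the linear unit, so that depth is unknown and levels are not compared between genes. Listing itself depended on the outcome: no gene in the table has a deposited log2 fold change closer to 0 than 1.0002, in either direction, between these same libraries. All changes below are the mean entry of the hypoxia-labelled libraries minus that of the normoxia-labelled libraries, with the standard error from limma fitted over the table. Of 2056 tested genes, 100% passed an adjusted p of 0.05 (79.4% higher and 20.6% lower), and in 99.9% the 2 groups of libraries did not overlap. The calls of the 5 factors, 1 higher and 4 lower, and the gap between their groups are therefore shared with nearly every listed gene and are given as description. In bulk RNA, fewer cells that express a gene and less of its RNA per cell cannot be told apart.

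Vegfa (ENSMUSG00000023951, chromosome 17) had entries of 8.37, 8.33 and 8.26 in normoxia replicates 2, 3 and 4, and of 7.30, 7.33 and 7.26 in hypoxia replicates 1, 2 and 4. The 3 libraries labelled normoxia were the higher ones, and the gap of 0.94 between the groups was wider than the range within either, at most 0.11. The means were 8.32 ± 0.05 (SD, n = 3) and 7.29 ± 0.04 (SD, n = 3), a change of -1.03 ± 0.07 (limma, Benjamini-Hochberg adjusted p = 4.27e-07). In linear values, the mean under the hypoxia label was 48.9% of that under the normoxia label. Vegfa lies close to the fold change that admits a gene to the table: 403 of the 423 lower genes had a larger change.

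Adm (ENSMUSG00000030790, chromosome 7) had entries of 6.60, 6.57 and 6.65 in the normoxia-labelled libraries and of 4.58, 4.44 and 4.64 in the hypoxia-labelled libraries. The groups were 1.93 apart, and hypoxia replicate 2 was the lowest library. Its change of -2.05 ± 0.08 (means 6.61 ± 0.04 and 4.55 ± 0.10, SD, n = 3; limma, Benjamini-Hochberg adjusted p = 3.39e-08) left 23.3% of the linear mean seen under the normoxia label. It was the largest fall of the 4, the 84th of 423 lower genes by size.

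Ccn1 (ENSMUSG00000028195, chromosome 3), once called Cyr61, had entries of 7.66, 7.69 and 7.86 under the normoxia label and of 5.90, 5.79 and 5.74 under the hypoxia label. Ccn2 (ENSMUSG00000019997, chromosome 10), known as connective tissue growth factor, had entries of 4.55, 4.57 and 4.73 under the normoxia label and of 2.95, 3.03 and 2.66 under the hypoxia label. For both genes, replicate 4 was the highest of the normoxia-labelled libraries and also the lowest of the hypoxia-labelled ones, and no libraries of different labels overlapped. Ccn1 changed by -1.93 ± 0.08 (means 7.74 ± 0.11 and 5.81 ± 0.09, SD, n = 3; limma, Benjamini-Hochberg adjusted p = 5.04e-08), to 25.9% of its linear mean. Ccn2 changed by -1.73 ± 0.11 (means 4.62 ± 0.09 and 2.88 ± 0.19, SD, n = 3; limma, Benjamini-Hochberg adjusted p = 3.94e-07), to 27.2% of its linear mean. The linear values of Ccn2 in the hypoxia-labelled libraries ran from 5.34 to 7.19, and its range there of 0.37 on the log2 scale was the widest within a group among the 5 factors.

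Pdgfa (ENSMUSG00000025856, chromosome 5) had entries of 5.22, 5.19 and 5.02 in the normoxia-labelled libraries and of 6.99, 6.96 and 7.05 in the hypoxia-labelled libraries. Every hypoxia-labelled library lay above every normoxia-labelled one, by at least 1.74. The change was 1.85 ± 0.08 (means 5.15 ± 0.11 and 6.999 ± 0.044, SD, n = 3; limma, Benjamini-Hochberg adjusted p = 4.48e-08), and the linear mean under the hypoxia label was 3.68-fold that under the normoxia label. By size it was the 165th of 1633 higher genes. The adjusted p-values in the authors' deposited table are larger, from 4.96e-05 for Adm to 0.000259 for Ccn2, from a test that the sources used here do not name.

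**Figure D1:**
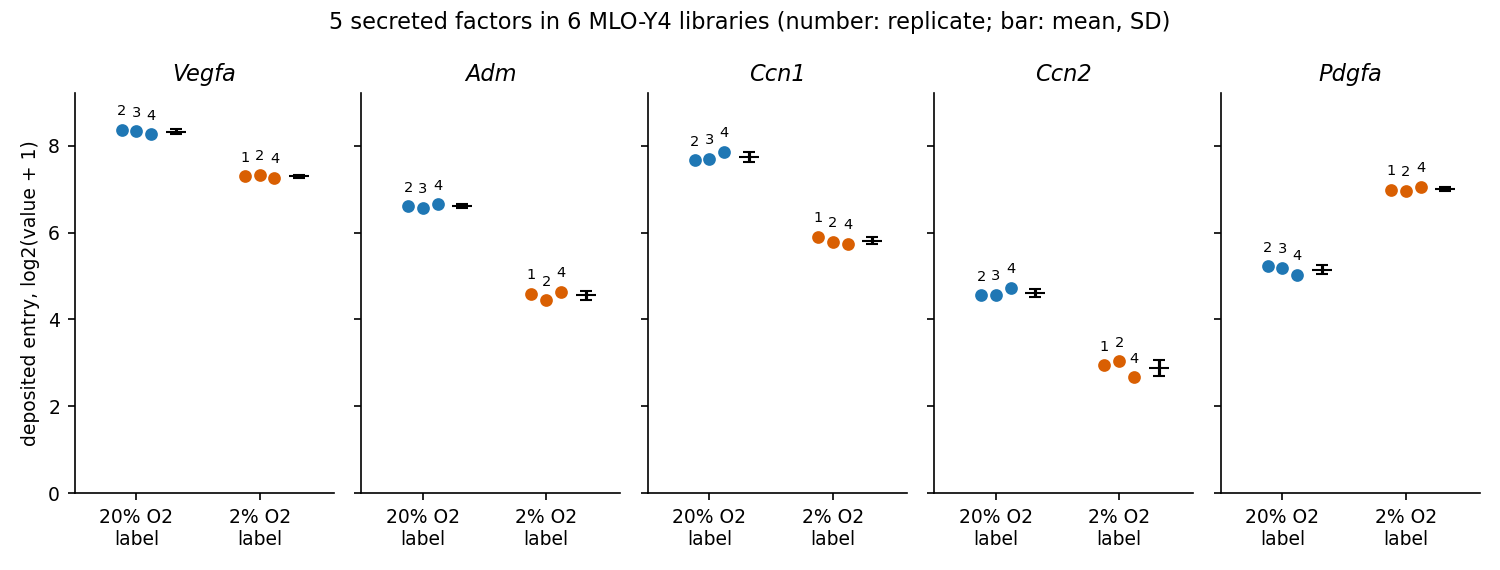
Entries of the 5 factors, log2(value + 1), in each of 3 libraries labelled 20% O2 and 3 labelled 2% O2, with the replicate number above each point and the group mean with its SD as a bar. Vegfa, Adm, Ccn1 and Ccn2 are lower and Pdgfa is higher under the 2% O2 label, with no overlap between the groups.

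**Figure D2:**
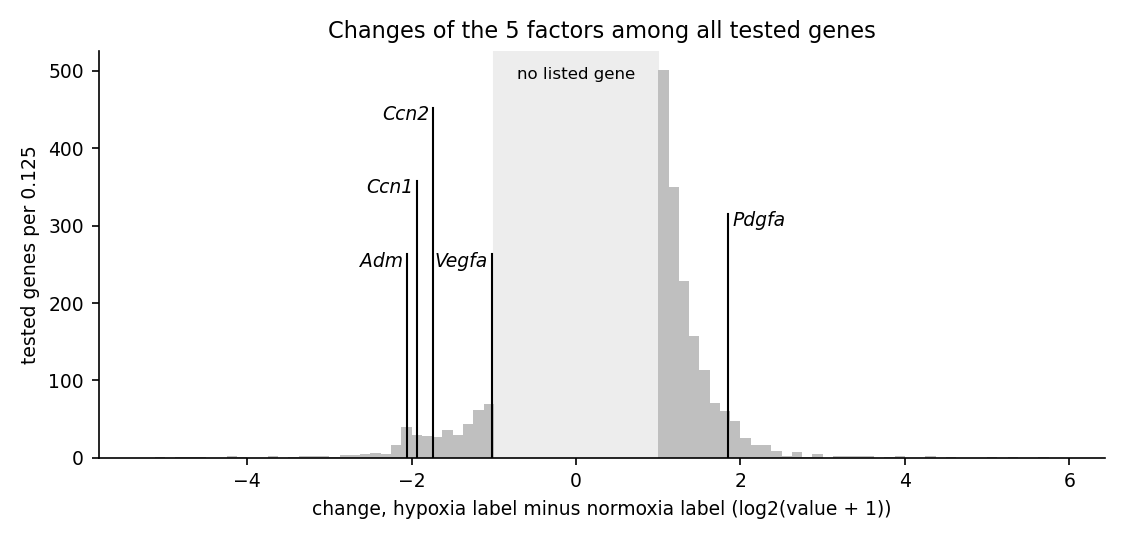
Histogram of the change of all 2056 tested genes, hypoxia label minus normoxia label, on the log2(value + 1) scale, with vertical lines at the 5 factors (line heights carry no value). No listed gene lies between -1 and 1, 1633 genes lie above and 423 below, and Vegfa stands at the inner edge of the lower genes.

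The size of each change depends on how the libraries are scaled, because most listed genes are higher under the hypoxia label. The median change of all tested genes was 1.15 as deposited, 1.27 with equal sums of linear values, 0.36 with quantile normalization and 0.03 with trimmed mean (TMM) factors, a method that centres the bulk of the listed genes on no change. Less that median, the deposited changes were -2.18 for Vegfa, -3.21 for Adm, -3.08 for Ccn1, -2.89 for Ccn2 and 0.70 for Pdgfa. Under TMM factors, Vegfa changed by -2.29 ± 0.06 and Adm by -3.30 ± 0.09. Ccn1 changed by -3.19 ± 0.10 and Ccn2 by -2.90 ± 0.12 under those factors. Pdgfa, the higher factor, shrank to 0.60 ± 0.06 and was still called (limma, Benjamini-Hochberg adjusted p = 8.46e-05), where 27.8% of all tested genes were called higher and 23.1% lower. All 5 kept their direction under the 4 scalings. No listed gene has a deposited log2 fold change smaller in size than 1.0002, so the table offers no unchanged genes to centre on. Which scaling is right was not tested, and a call lost or reversed with TMM factors does not show that a change is absent.

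**Figure D3:**
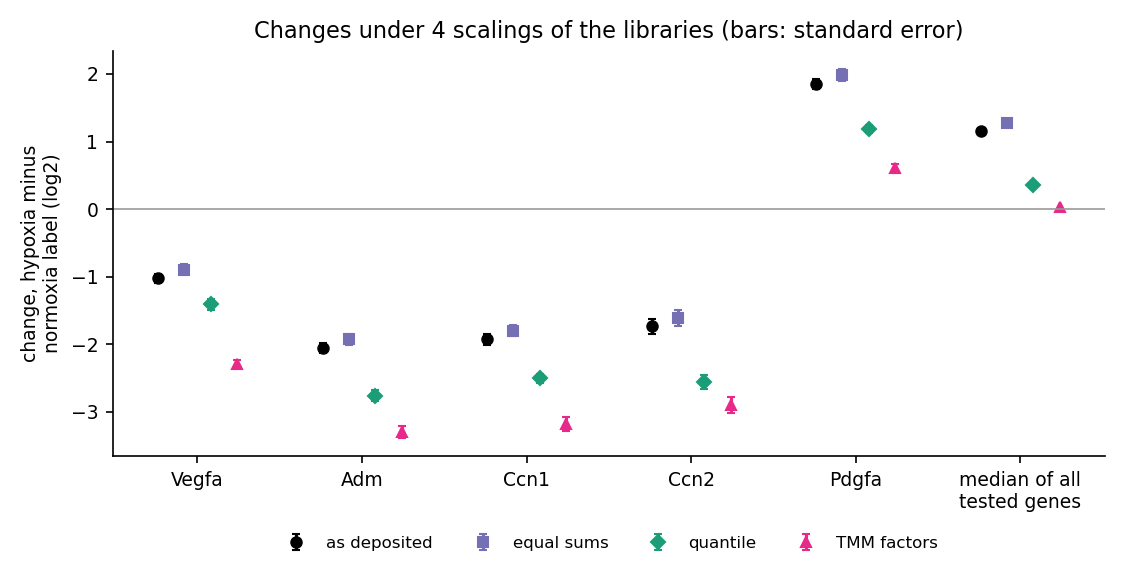
Change of each factor with its standard error, hypoxia label minus normoxia label on a log2 scale, as deposited and with equal sums, quantile normalization and TMM factors; the last column is the median of all tested genes. Pdgfa goes from 1.85 as deposited to 0.60 with TMM factors, and between these scalings the 4 lower factors move further below 0. With equal sums Pdgfa is at 1.98 and the 4 lower factors lie nearer to 0 than as deposited, Vegfa at -0.90.

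Ratios of the factors within a library do not change when all values of a library are multiplied by 1 factor, apart from the effect of the pseudocount. The log2 ratio of Pdgfa to Vegfa was -3.14, -3.14 and -3.24 in normoxia replicates 2, 3 and 4, and -0.31, -0.36 and -0.21 in hypoxia replicates 1, 2 and 4. Since a ratio of 2 genes also depends on the length of their transcripts where values are not per length, only its shift between the groups is read, here 2.88. The ratio of Pdgfa to Adm shifted by 3.91, that to Ccn1 by 3.78 and that to Ccn2 by 3.59, all with no overlap between groups. These 4 shifts set a gene listed as higher against genes listed as lower, so the way genes were listed already fixed their direction. The groups of each of these genes did not overlap, as in 99.9% of tested genes, so a gap in the ratios had to follow. The 4 shifts are therefore a description. An exact two-sided permutation test gave p = 0.1 for each of the 5 ratios compared (Benjamini-Hochberg adjusted p = 0.1), the smallest p that 3 libraries against 3 allow. Among these ratios, that of Ccn1 to Ccn2 moved least: it was 3.11, 3.12 and 3.14 under the normoxia label and 2.96, 2.76 and 3.07 under the hypoxia label, a shift of -0.19. With a pseudocount of 0.1 in place of 1 that shift was -0.08 and the groups overlapped (exact permutation test, two-sided p = 0.7). A difference in the size of the fall between these related genes therefore rests on the pseudocount.

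**Figure D4:**
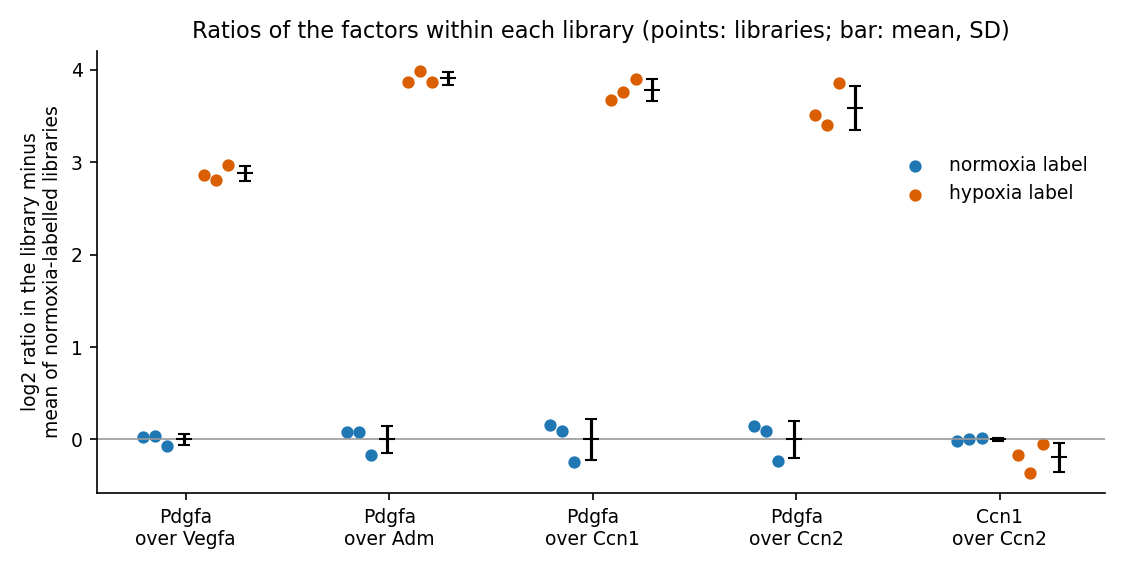
Log2 ratio of 2 factors in each library, minus the mean of that ratio in the 3 normoxia-labelled libraries, with the group mean and SD as bars. The 4 ratios of Pdgfa rise by 2.88 to 3.91 in the hypoxia-labelled libraries, and the ratio of Ccn1 to Ccn2 moves by -0.19.

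Receptors and relatives of the factors were looked up in family lists. Beside Vegfa, the only listed gene among 10 VEGF ligands and receptors was Nrp2, a neuropilin that acts as a coreceptor for VEGF-C and for semaphorins. Nrp2 was higher under the hypoxia label (4.96, 4.85 and 4.73 against 6.10, 6.22 and 6.08; change 1.29 ± 0.08), and it was no longer called with TMM factors (change 0.04; limma, Benjamini-Hochberg adjusted p = 0.567). Of 11 adrenomedullin ligands and receptors, Adm and Calcrl were listed. Calcrl encodes the receptor chain that binds adrenomedullin when paired with a RAMP protein. Its entries were 2.71, 2.59 and 2.71 under the normoxia label and 4.15, 4.26 and 4.14 under the hypoxia label, the opposite direction to its ligand's (change 1.51 ± 0.09, and 0.37 with TMM factors; limma, Benjamini-Hochberg adjusted p = 0.00398 with TMM factors).

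Of the 6 CCN genes, 4 were listed, 2 lower and 2 higher. Ccn4, a Wnt-inducible member expressed in osteoblasts, had entries of 2.11, 1.78 and 1.55 under the normoxia label and of 4.27, 4.14 and 4.19 under the hypoxia label (change 2.39 ± 0.14). Ccn5, which lacks the C-terminal cystine knot of its relatives, had entries of 5.79, 5.14 and 5.43 under the normoxia label and of 7.29, 7.32 and 7.24 under the hypoxia label (change 1.83 ± 0.14). Both stayed called higher with TMM factors, at 1.33 and 0.57, so the CCN family moved both ways under each of these scalings. Of 14 receptors that bind CCN proteins, 4 integrin chains were listed, all higher as deposited, where 79.4% of the table was called higher, and 1 of them was called higher with TMM factors. Itga5, the alpha chain of the fibronectin receptor, changed by 2.01 ± 0.10 (0.77 with TMM factors). Itga6 (1.20), Itgb5 (1.13) and Itgb8 (1.01) were not called with TMM factors, where the last 2 were at -0.13 and -0.10.

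Of 7 PDGF ligands and receptors, Pdgfa and both receptor genes were listed. Pdgfra, the receptor chain that binds PDGF-AA, had entries of 5.98, 6.19 and 6.39 under the normoxia label and of 4.67, 4.69 and 4.67 under the hypoxia label. It was lower where its ligand was higher (change -1.51 ± 0.10, and -2.75 with TMM factors). Pdgfrb, the chain that prefers PDGF-BB, was higher as deposited (4.20, 4.18 and 4.11 against 5.47, 5.73 and 5.52; change 1.41 ± 0.09) and was not called with TMM factors (0.18). The log2 directions of Adm and Calcrl, and of Pdgfa and Pdgfra, were thus opposite as deposited and under TMM factors. As deposited, 79.4% of all tested genes were called higher and 20.6% lower, so these opposite directions are given as description.

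Lists of genes that share a regulator with the factors were mixed, beside 79.4% called higher and 20.6% called lower over all tested genes. Of 22 YAP and TEAD target genes, 6 were listed, Ccn1 and Ccn2 lower and 4 higher (median 1.05, against 1.15 over the whole table). Arhgef17, a guanine nucleotide exchange factor, changed by 1.71 ± 0.10 and the secreted kinase relative Fjx1 by 1.14 ± 0.08, and both stayed called higher with TMM factors. Fjx1 had entries of 0.30, 0.33 and 0.35 under the normoxia label, near the floor. It reached the minimum value for testing only in the hypoxia-labelled libraries. Amotl2, a scaffold that restrains YAP, changed by 1.04 ± 0.08 as deposited, and with TMM factors it was called lower (-0.20; limma, Benjamini-Hochberg adjusted p = 0.0462). Ccdc80 changed by 1.07 ± 0.20 as deposited and by -0.08, not called, with TMM factors. Of 27 Hippo pathway components, Amotl2, Tead1 (1.17) and the kinase gene Taok2 (1.08) were listed, all higher as deposited, and 0 were called higher with TMM factors.

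Of 22 TGF-beta response genes, 5 were listed, 3 lower and 2 higher (median -1.03), where 20.6% of all tested genes were called lower. They include Vegfa, Ccn2 and Pdgfa themselves. Bhlhe40, a transcriptional repressor that is also on the HIF list, changed by -3.40 ± 0.09. Ski, a repressor of this pathway, changed by 1.34 ± 0.13 (not called with TMM factors, 0.14). Of 22 targets of the serum response factor and its actin-sensing coactivators, Acta1 (-2.59) and Actg1 (-1.87) were lower and Filip1l (1.22; not called with TMM factors, 0.31) was higher. Zfp36l1, which binds AU-rich elements and speeds the decay of transcripts, Vegfa among its known targets, was lower too (-1.05), and Hnrnpd was higher (1.18; -0.09, not called, with TMM factors), out of 11 genes for such RNA-binding proteins.

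Among 15 other matricellular genes, Thbs1, which encodes the angiogenesis inhibitor thrombospondin, was lower (3.54, 3.64 and 3.83 against 2.38, 2.68 and 2.43; change -1.17 ± 0.12). Spp1, which encodes osteopontin, was higher as deposited (1.10 ± 0.07) and at -0.17, not called, with TMM factors. Of 46 other angiogenic and angiostatic factors, 10 were listed, 9 higher and 1 lower, where 79.4% of all tested genes were called higher. Their median change was 1.64, against 1.15 over the whole table. With TMM factors, 27.8% of all tested genes were called higher, and 6 of these 9 higher factors stayed called higher. They include Angptl4 (3.996 ± 0.211), a lipoprotein lipase inhibitor, Angpt1 (1.66 ± 0.11), the ligand that activates the endothelial receptor Tie2, and Ereg (2.01 ± 0.10), an epidermal growth factor receptor ligand. Sema3c (1.93 ± 0.09), Fgf7 (1.63 ± 0.10) and Col18a1 (1.74 ± 0.14), the source of the angiogenesis inhibitor endostatin, are the others. Under the normoxia label Sema3c had entries of 0.82, 0.66 and 0.72, near the floor. Only the hypoxia-labelled libraries brought Sema3c to the minimum value for testing. The growth factor gene Hgf (1.03), Sema3a (1.16) and Serpinf1 (1.04), which encodes the angiogenesis inhibitor PEDF, were not called with TMM factors, where Serpinf1 stood at -0.17. The lower one was Nrg1, an ErbB receptor ligand (-1.23 ± 0.10). Angptl4 and 2 further genes, Tfrc (1.22) and Pfkfb4 (1.46), are the higher genes of the HIF list, and only Angptl4 of these 3 stayed called higher with TMM factors.

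**Figure D5:**
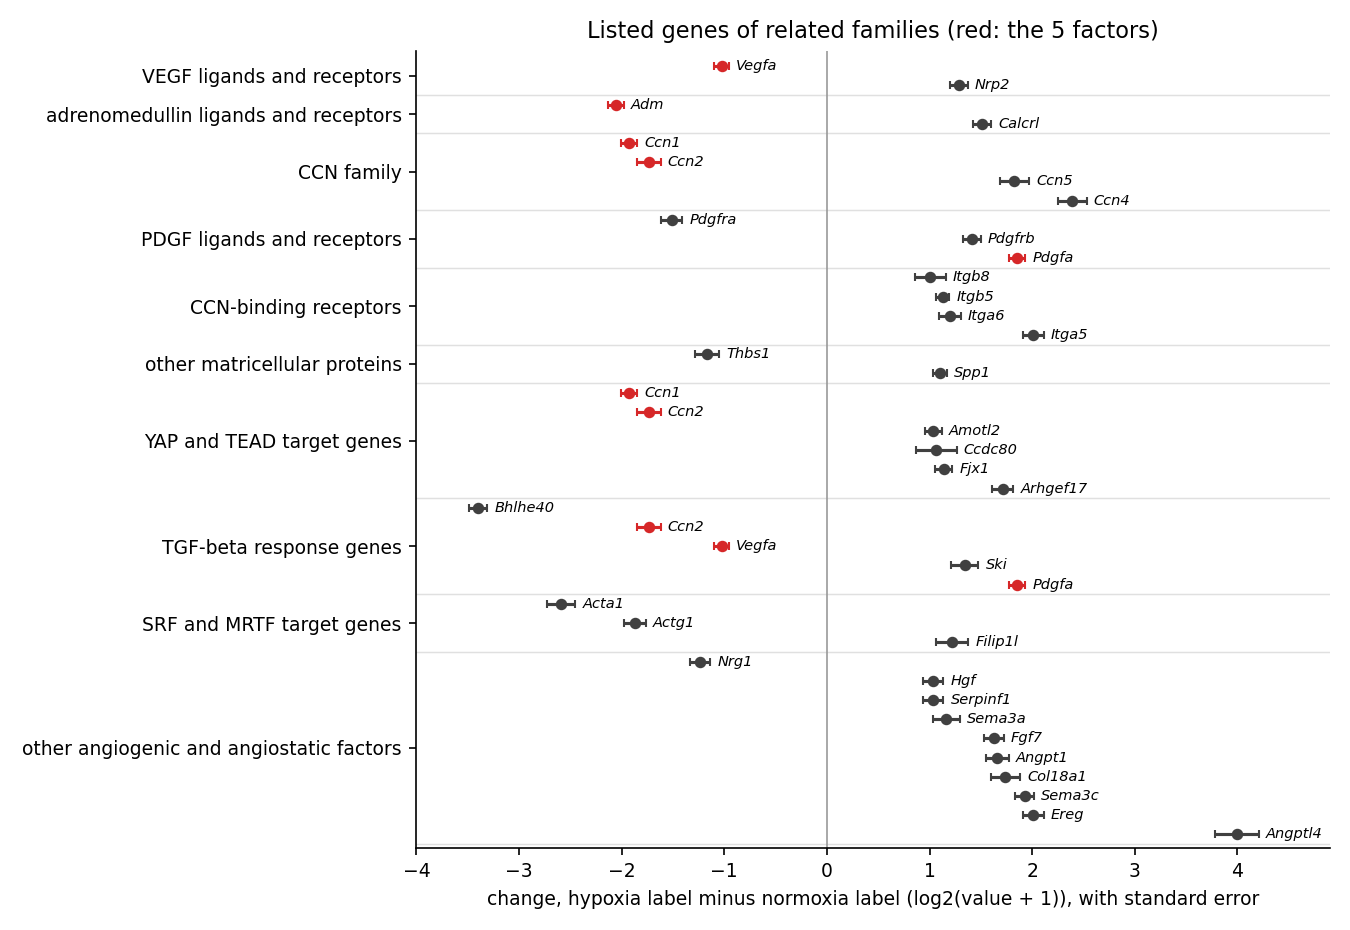
Change of every listed gene of 10 family and regulator lists, hypoxia label minus normoxia label on the log2(value + 1) scale, with its standard error; the 5 factors are in red. Adm and Calcrl, and Pdgfa and Pdgfra, lie on opposite sides of 0, and the CCN family has 2 genes on each side.

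Genes whose entries followed those of a factor most closely over the 6 libraries were ranked by Pearson's r, as a description, since the table was chosen for a difference between these groups. For Vegfa these were Bnip3l, a mitophagy receptor, the glycolytic enzyme gene Gpi1 and the chaperone gene Hspa1a, which shares reads with a near-identical copy and is uncertain (r from 0.99878 to 0.99917). For Adm they were Ifit1, an interferon-induced gene, the small heat shock protein gene Cryab and Dhrs3. Ccn1 was followed by the noncoding RNA Chaserr, by Slc2a1 and by the intermediate filament gene Vim, and Ccn2 by Irx2, Ccdc85b and the histone demethylase gene Kdm3a. For Pdgfa, the closest were Elovl6, a fatty acid elongase, the metal transporter gene Slc11a2 and Tmem74. An r above 0.99 was common, counted over all tested genes with none of these left out. With Vegfa 161 other genes had it, with Adm 174, with Ccn1 224, with Ccn2 162 and with Pdgfa 895.

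Marker lists of cell types could be read only through the selected genes. Of 11 osteocyte markers, Pdpn was listed and higher (1.76), so the osteocyte-like label could not be checked further here. Of 12 osteoblast markers 7 were listed, 5 higher and 2 lower, a split near the 79.4% called higher over the table, and with TMM factors 4 were called higher and 2 lower. Of 14 endothelial markers 0 were listed, of 14 macrophage and osteoclast markers Cd68 was lower (-1.46) and Mmp9 higher (1.16), and of 10 pericyte and smooth muscle markers Cspg4 was higher (1.80). Mmp9 had entries of 0.11, 0.16 and 0.12 under the normoxia label, near the floor. It reached the minimum value for testing only in the hypoxia-labelled libraries. The part of these cell types in the changes of the 5 factors was not tested.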

How the data were processed

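RNA was sequenced from 6 samples of MLO-Y4 cells, 3 labelled normoxia and 3 labelled hypoxia. Per the labels' protocols, DNase-treated RNA of integrity number 8 or more was made into stranded messenger RNA libraries. Build GRCm39 (mm39), DRAGEN and FastQC 0.12.0 are named, per the submitters' processing notes. The authors deposited log2 entries for 2065 genes, together with a log2 fold change and an adjusted p-value per gene. Raising 2 to each entry and subtracting 1 gave numbers with 3 decimals (tolerance 1e-06), which is the form of log2(value + 1). The sources used here name neither the normalization nor the authors' test. The 21 further columns of per-sample values were not used: 18 repeat selected genes and 3 hold values of mice that belong to no sample.

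The changes were tested with limma 3.58.1 in R 4.3.3 (variance trend, robust estimation) on the 2056 genes that reached a value of 1 in 3 or more libraries, two-sided, with Benjamini-Hochberg adjustment over all of them. All 5 factors passed this filter. Ratios within libraries used exact permutation tests (scipy 1.17.1). The test was checked on simulated data in which a minority of genes changed, equally often up and down. That check does not cover a table listed by its outcome, as this one is. As alternatives, 3 other scalings, a stricter threshold (0.01), 2 other pseudocounts (0.1 and 5), a minimum value of 5 or none, a fit with neither trend nor robust estimation, the replicate number as a block and the omission of single libraries were tried. The TMM factors were computed on linear values. The factors and gene lists were chosen with earlier results of these data known. Named genes were the factors, up to 6 listed genes per list by adjusted p, and the 3 most alike per factor. Those 3 were taken among genes other than the factors, without genes that have only a predicted name. Tfrc, Pfkfb4, Col18a1, Hgf, Serpinf1 and Sema3a were named after their values were seen. A further TGF-beta response gene was taken off its list and is not reported here. Promoters came from RefSeq (GRCm38.p6) and were matched by symbol for 4 of the 5 factors.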

Additional observations from a re-analysis of the deposited data

How the results depend on the processing

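All 75 changes of the 5 factors recomputed under alternatives had the same sign and passed the adjusted p of 0.05. Leaving out each library in turn moved Vegfa between -1.05 and -1.001, Adm between -2.10 and -2.00, Ccn1 between -1.97 and -1.87, Ccn2 between -1.81 and -1.63 and Pdgfa between 1.79 and 1.89. The shifts of the ratios then ran from 2.84 to 2.91 for Pdgfa to Vegfa, from 3.83 to 3.95 for Pdgfa to Adm, from 3.66 to 3.86 for Pdgfa to Ccn1, from 3.46 to 3.68 for Pdgfa to Ccn2 and from -0.27 to -0.11 for Ccn1 to Ccn2. TMM factors lowered the genes called from 2056 to 1046 and those called higher from 1633 to 571. Some other named genes missed the minimum value for testing under an alternative and gave no value there. This held for Fjx1, Sema3c and Mmp9 when a hypoxia-labelled library was left out. Of the 939 values that could be computed for 64 other named genes, 916 kept direction and call, 14 lost the call and 9 reversed. All 9 reversed with TMM factors: Itgb5 (-0.13), Itgb8 (-0.10), Amotl2 (-0.20), Taok2 (-0.081), Hnrnpd (-0.089), Ccdc80 (-0.082), Spp1 (-0.17), Tfrc (-0.033) and Serpinf1 (-0.17). Replicate numbers 2 and 4 occur in both groups, but the deviations of same-numbered libraries from their group means correlated at only 0.08 and -0.07, so they were not taken as pairs. With the replicate block 2045 genes were called, and Vegfa changed by -1.03, Adm by -2.09, Ccn1 by -2.00, Ccn2 by -1.79 and Pdgfa by 1.88. These block changes rest on replicates 2 and 4 of each label alone. Hypoxia replicate 1 and normoxia replicate 3 have no partner and add nothing to them. Depth is unknown, so no counting error can be given, and Ccn2 depended most of the 5 factors on the pseudocount (-1.87 with 0.1 and -1.33 with 5).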
